A study of Mus musculus with 137 samples.

Results

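The comparison described here is that of duodenal villi from mice given 60 ppm hexavalent chromium, Cr(VI), for 90 days with villi from untreated mice of the same day, called day 91. Its members are 9 libraries, from 9 of the 71 mice and 2 of the 28 groups of the series, 5 exposed (mice 402, 403, 404, 405, and 406) and 4 untreated (mice 3, 5, 6, and 7), and they were taken by the compartment, concentration, and day in the sample labels. All mice were wildtype B6C3F1 females, and the exposed ones drank sodium dichromate dihydrate in water at will, while the controls had 0 ppm. Both groups were fixed and embedded in paraffin in the same way, the crypts were scraped from a duodenal section of each mouse, and the RNA left on the slide was measured by TempO-Seq, in which pairs of short oligonucleotides that lie side by side on a transcript are ligated, amplified, and counted. A scraped section holds everything on the villus (epithelium, lamina propria, blood vessels, and immune cells), so fewer cells of a type and less RNA per cell cannot be told apart in any result below.

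The villus is a sheet of absorptive enterocytes over a core of connective tissue, vessels, and immune cells. Enterocytes are born in the crypt, mature as they climb, acquire digestive enzymes and nutrient transporters at their brush border, and are shed at the tip, and intraepithelial T lymphocytes sit between them. Cr(VI) is reduced to Cr(III) in the stomach and in cells, and the villus epithelium is the part of the small intestine that meets what is absorbed.

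The 9 libraries expressed the genes of the labelled tissue. Transcripts of Vil1, which encodes the actin-bundling brush border protein villin, stood at 7142, 7671, 7831, and 5831 CPM (counts scaled to a common library size by the trimmed mean of M-values, TMM) in the untreated villi and at 5951 to 6494 CPM in the exposed villi, with no difference past the threshold (log2 fold change -0.20 ± 0.21 standard error, SE, adjusted p = 0.612). With the size factors of DESeq2 it passed as lower (log2 -0.60). The summed level of 15 enterocyte markers was 61757 to 84882 CPM in untreated and 66835 to 132406 CPM in exposed villi, and 6 of the 15 fell while 2 rose. Summed Paneth cell markers, which belong to the crypt base, reached 757 to 3817 CPM in untreated and 910 to 4064 CPM in exposed villi, so some crypt RNA was present in both groups, and 2 of 12 Paneth markers fell and 0 rose (4 fell with detected probes as a covariate). Pancreatic acinar transcripts were also present, at 2621 to 75265 CPM in untreated and 4248 to 80769 CPM in exposed villi, and 0 of the 15 acinar markers differed between the groups.

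The untreated libraries were shallower and held fewer different transcripts. Total counts ran from 1667014 to 2678299 in the untreated and from 2902207 to 6749336 in the exposed villi (exact permutation test, two-sided, p = 0.0159). At least 1 count was found for 13091 to 15835 of the 30146 probes in the untreated libraries and for 17636 to 21452 in the exposed libraries. When all 9 libraries were thinned at random to the smallest total, 1667014 counts, the ranges became 13091 to 15751 and 17211 to 19740 (means 14181 and 18420, exact permutation p = 0.00794, the smallest p that 4 against 5 libraries allow). The difference of the means, 4239 probes at equal depth, was smaller than before thinning, when the means were 14225 and 19267, and the groups still did not overlap. Probes with only 1 to 3 counts numbered 281 to 357 in untreated and 455 to 2650 in exposed libraries. Whether so few low counts in the untreated villi arose in the libraries or in a step before deposit was not tested, and it bears on every level of 0 given below for untreated villi. Detected probes numbered 13962 to 17055 in the villi at 0.1 and 1.4 ppm on the same day, at totals of 2723703 to 4216064, so the exposed villi also lay above those groups. They overlapped the other groups of that day before thinning, with 17172 to 21527 at 5 ppm, 17989 to 20266 at 20 ppm, and 15157 to 18947 at 180 ppm.

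**Figure D1:**
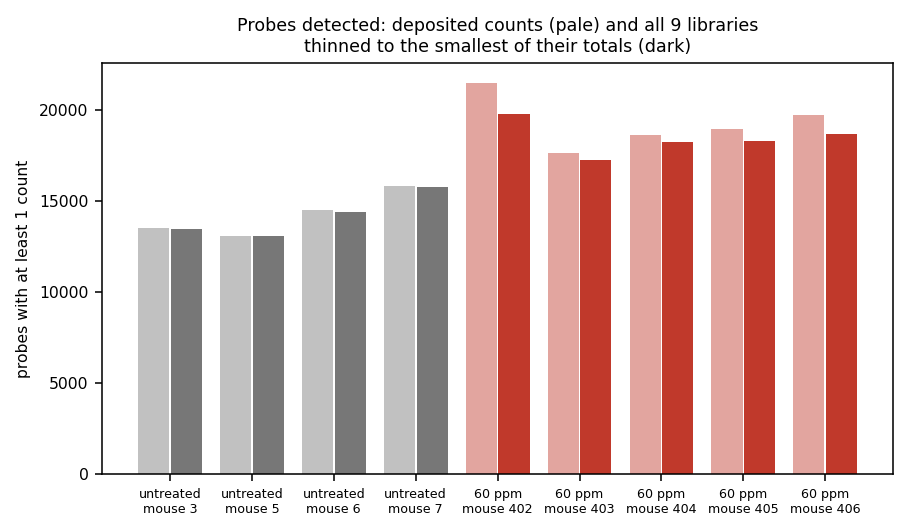
Probes with at least 1 count in each of the 9 villus libraries at day 91, from the deposited counts (pale bars) and after thinning every library to 1667014 counts (dark bars), with untreated mice in grey and mice given 60 ppm in red. All 4 untreated libraries stayed at or below 15751 probes and all 5 exposed libraries at or above 17211 after thinning.

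Depth and detection differed between these groups, so their part in the counts below cannot be told apart from that of exposure. Between the exposed and the untreated villi, 3151 of the 18998 genes tested differed (16.6%). In the exposed villi 2212 were higher (11.6%) and 939 lower (4.94%) at an adjusted p under 0.1 in edgeR's quasi-likelihood test. Among them, 1670 of the higher and 812 of the lower genes changed by more than 2-fold, and the libraries of the groups did not overlap for 1731 and 508. Over all genes tested, the libraries did not overlap for 11.3% with the exposed villi above and 3.28% with the exposed villi below. Without the 3 libraries with the most acinar RNA (mice 7, 402, and 405), 1803 genes were higher (9.49%) and 570 lower (3%). Each library of this comparison came from a different mouse. The spread behind these p-values was estimated over all groups and libraries of the series. Most mice of the series gave both a crypt and a villus, which were treated as independent in that fit. All groups shared the estimate, although replicates correlated less closely in untreated than in exposed villi. Fitted alone, the 9 libraries of this comparison gave 1903 higher and 1138 lower genes of 9835 tested.

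The balance of higher and lower genes depended on how the libraries were scaled. The median log2 fold change of all genes was 0.31 with TMM and 0.00 when the same libraries were scaled by the size factors of DESeq2 or by TMM over probes of at least 50 CPM. Under the size factors of DESeq2, 1198 genes were higher (6.31%) and 1723 lower (9.07%), so the share of higher genes among those called went from 70.2% to 41.0%. The shares of higher and lower genes were 5.67% and 9.89% with TMM over probes of at least 50 CPM, 8.76% and 8.35% in DESeq2, and 6.14% and 3.42% when the number of detected probes, counted after thinning, was a covariate. All 4 scalings called 1057 genes higher and 830 lower. No gene was called in opposite directions by any pair of them. A change of scaling shifts all genes by about the same small amount, so opposite calls could hardly arise. The log2 values below are from TMM, and a value near 0.31 is therefore close to the middle of all genes. The share of higher genes rose with level up to 1000 CPM, from 0 of 5870 genes under 1 CPM. It was 737 of 2677 at 30 to 100 CPM and 602 of 1289 at 100 to 300 CPM. At 300 to 1000 CPM it was 225 of 418. Medians of those ranges were 0.35, 0.58, and 0.70. The lists below were not matched for level, so a list of well-expressed genes is to be read against these values too.

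**Figure D2:**
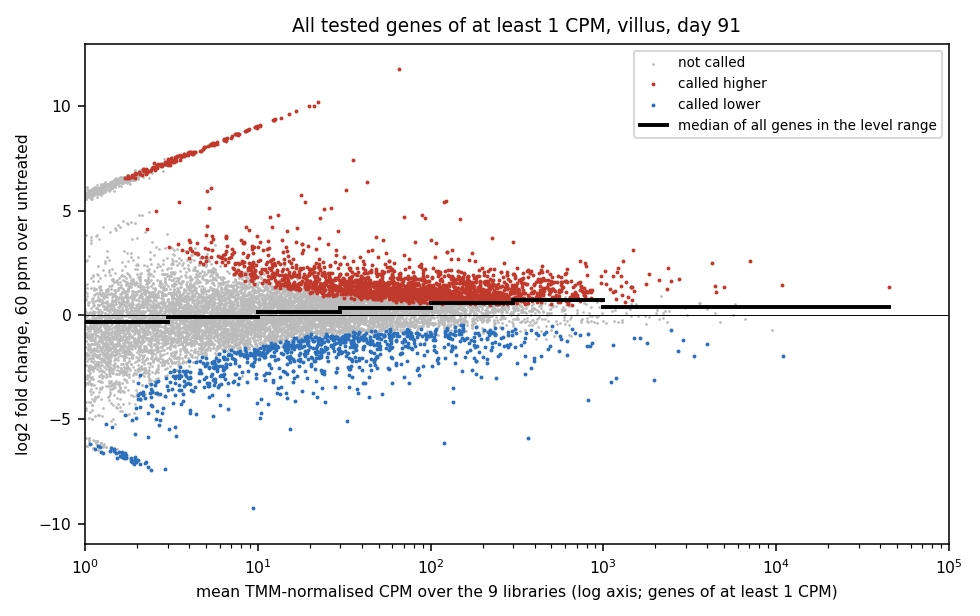
Log2 fold change of each tested gene of at least 1 CPM against its mean level over the 9 libraries on a log axis, with called genes in colour and the median of all genes in 7 ranges of level as black bars. The median rose from -0.34 at 1 to 3 CPM to 0.70 at 300 to 1000 CPM, and genes measured in only 1 of the groups form the oblique lines on the left.

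Ranked by p among genes of at least 10 CPM with non-overlapping libraries, the leading decreases were those of Pck1, Ada, Btnl6, Tap2, Slc6a20a, and Apob, and the leading increases those of S100a6, Safb, Taf1d, Ero1l, Ppia, and Gmds. The other probe of Safb did not pass the test (means of 119 and 151 CPM, log2 0.34, adjusted p = 0.396). Pck1 (GRCm38 chr2:173153048-173159273), the gene of the cytosolic enzyme that commits carbon to gluconeogenesis, had 865, 1401, 725, and 229 CPM in the untreated villi and 10.3, 20.2, 13.4, 5.34, and 18.5 CPM in the exposed villi. Every exposed library lay below every untreated one, and the fold decrease was 59.4 (log2 fold change -5.89 ± 0.59 SE, adjusted p = 2.47e-13). Ada (chr2:163726584-163750239) encodes adenosine deaminase, an enzyme of purine breakdown made at the villus tip, and went from 624, 285, 89.3, and 59.3 CPM to 2.65, 1.66, 2.29, 9.5, and 3.14 CPM (log2 -6.12 ± 0.70, adjusted p = 2.18e-11). The untreated mice were widely spread in Ada. Groups that did not overlap were a condition of this ranking, so the separation seen for Pck1 and Ada is no added support.

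Among the increases, S100a6 (chr3:90612882-90624181), a calcium-binding protein of dividing and stressed epithelia, had 86.2, 53.3, 40.2, and 4.59 CPM in untreated and 391, 395, 637, 531, and 577 CPM in exposed villi (log2 3.49 ± 0.39, adjusted p = 3.48e-11). Gmds (chr13:31819579-32338740), which makes the GDP-fucose used to decorate glycoproteins, had 4.98, 11.6, 43.7, and 52.4 CPM in untreated and 323 to 428 CPM in exposed villi (log2 3.70 ± 0.43, adjusted p = 5.55e-11). The exposed libraries were tightly grouped for both genes, and the untreated ones were spread.

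**Figure D3:**
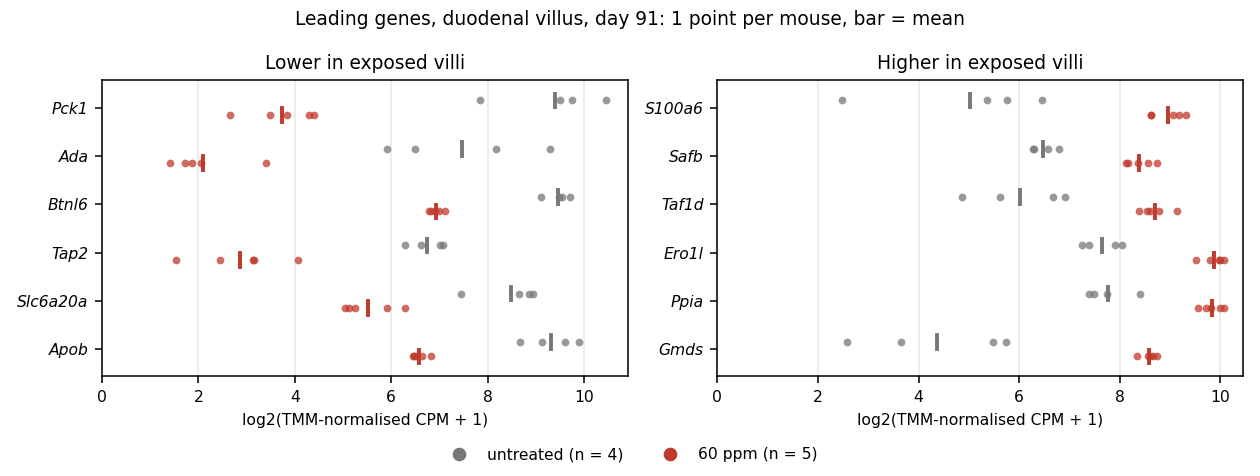
Levels, as log2 of TMM-normalised CPM plus 1, of the 6 genes of smallest p in each direction among those of at least 10 CPM whose groups did not overlap, with 1 point per mouse (grey untreated, red 60 ppm) and a bar at each group's mean. Pck1 and Ada are at the top of the decreases and S100a6 at the top of the increases.

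Genes of carbohydrate metabolism and of the villus tip included the largest decreases. Of 22 genes of fructose metabolism and gluconeogenesis, 6 fell and 1 rose (list median log2 -0.32 against 0.31 over all genes). G6pc, the glucose-6-phosphatase that releases free glucose, went from 40.2 to 55.4 CPM in untreated to 2.85 to 5.84 CPM in exposed villi (log2 -3.48 ± 0.61, adjusted p = 4.63e-06). Of 9 villus tip markers, 5 fell and 1 rose, the riser being Egfr (log2 1.28, adjusted p = 0.0922), the receptor of epidermal growth factor, whose groups overlapped and which did not pass under the other 3 scalings (log2 0.76 to 0.89). Slc28a2, a nucleoside transporter found beside Ada at the tip, had 70.3, 39.6, 14.2, and 9.56 CPM in untreated villi and 0, 0, 0, 2.37, and 1.57 CPM in exposed villi (log2 -5.48 ± 0.91, adjusted p = 1.39e-06). Apoa4, an apolipoprotein of chylomicrons and among the most abundant villus transcripts, went from 11934 to 28672 CPM to 3110 to 7910 CPM (log2 -1.94 ± 0.45, adjusted p = 0.000868).

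Digestive enzymes of the brush border fell or did not pass the test. Of 27 genes, 11 fell and 0 rose, and the list median was -1.72, with 11 to 15 members lower across the 4 scalings. With detected probes as a covariate 8 were lower (median -0.49), and after thinning 13 of 26 (median -1.12). Mme, the neutral endopeptidase that trims peptides, had 2668, 2356, 2615, and 1544 CPM in untreated and 277, 409, 201, 211, and 318 CPM in exposed villi (log2 -3.02 ± 0.39, adjusted p = 2.56e-09). Mgam, the maltase-glucoamylase that finishes starch digestion, was 3.84-fold lower, with 3870 to 6719 CPM in untreated and 1314 to 1577 CPM in exposed villi (log2 -1.94 ± 0.27, adjusted p = 1.61e-08). Dpp4, which cuts incretin hormones and proline-containing peptides, fell by 2.59 ± 0.44 on the log2 scale. The structural genes of the microvillus and of cell junctions were split, with 6 of 42 higher and 7 lower, and with 13 or 14 lower under the other 3 scalings and 1 lower with detected probes as a covariate. Krt19, a keratin of simple epithelia, had 166, 169, 170, and 371 CPM in untreated and 982 to 1639 CPM in exposed villi (log2 2.50 ± 0.38), and Cldn2, a pore-forming claudin of leaky tight junctions and crypts, had 6.98 to 83.4 CPM and 179 to 387 CPM (log2 3.00 ± 0.53).

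Nutrient transporters were mostly lower where they changed. Of 47 tested, 16 fell and 4 rose (10 and 3 with detected probes as a covariate), and the libraries of the groups did not overlap for 16 members with the exposed villi below and 5 with them above. Slc6a20a, a transporter of proline, had 462, 487, 402, and 174 CPM in untreated and 31.8 to 76.9 CPM in exposed villi (log2 -2.98 ± 0.36, adjusted p = 1.66e-10). Slc6a19, the main transporter of neutral amino acids, fell from 427 to 871 CPM to 132 to 192 CPM (log2 -2.08 ± 0.32), and Slc46a1, the proton-coupled folate transporter that also carries haem, fell from 132 to 201 CPM to 16.8 to 40.5 CPM (log2 -2.45 ± 0.46). Slc16a1, a carrier of lactate and other monocarboxylates, moved the other way, from 81.1 to 147 CPM to 281 to 365 CPM (log2 1.58 ± 0.29, adjusted p = 1.11e-05).

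Genes of lipid uptake moved in both directions. Of 34 genes of lipid absorption and chylomicron assembly, 13 fell and 8 rose (median -0.46). With detected probes as a covariate 6 fell and 6 rose, and the number of higher members was 4 with the size factors of DESeq2. Apob, the structural protein of the chylomicron, fell from 950, 771, 554, and 409 CPM to 87.2, 90.2, 86.0, 98.3, and 113 CPM (log2 -2.82 ± 0.34, adjusted p = 1.96e-10), and Cd36, a fatty acid receptor, fell from 48.6 to 82.7 CPM to 2.37 to 11.6 CPM (log2 -3.45 ± 0.51). Plin2, which coats lipid droplets inside the cell, rose from 147 to 304 CPM to 546 to 878 CPM (log2 1.81 ± 0.27, adjusted p = 1.19e-07). Fabp2, a fatty acid carrier of the enterocyte cytoplasm and the gene with the highest level on this list, rose from 20805 to 29423 CPM to 41718 to 92979 CPM (log2 1.32 ± 0.33, adjusted p = 0.00237).

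Oxidation and conjugation enzymes of drug metabolism were lower more often than higher, with 16 of 109 down and 4 up (median -0.27). Cyp3a13, a cytochrome P450 3A of the mouse intestine, fell from 592 to 1433 CPM to 175 to 369 CPM (log2 -1.93 ± 0.32), and Ugt2b38, a glucuronosyltransferase, from 171 to 400 CPM to 7.61 to 26.1 CPM (log2 -4.16 ± 0.75). UGT and P450 genes belong to families with near-identical copies, and the probe of one may capture another. Among nuclear receptors and enterocyte transcription factors, 9 of 45 fell and 2 rose, with 14 or 15 lower under the other 3 scalings. Vdr, the vitamin D receptor, fell from 601 to 926 CPM to 226 to 299 CPM (log2 -1.5 ± 0.30, adjusted p = 5.80e-05), while Klf5, a factor of proliferating epithelium, rose from 450 to 560 CPM to 919 to 1326 CPM (log2 1.16 ± 0.32, not passed with detected probes as a covariate). Selenop, which carries selenium in a secreted protein and was chosen by its p-value and by no list, fell from 1538 to 2946 CPM to 151 to 372 CPM (log2 -3.23 ± 0.43, adjusted p = 6.47e-09).

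Genes of antigen presentation were lower as a group. Of 31, 17 fell and 0 rose, the libraries did not overlap for 16, and the list median was -1.19. Tap2 (chr17:34203527-34216321), a subunit of the pump that loads peptides onto class I molecules, had 96.7, 128, 134, and 76.9 CPM in untreated and 7.78, 15.7, 1.91, 4.45, and 7.85 CPM in exposed villi (log2 -3.77 ± 0.45, adjusted p = 1.41e-10). H2-T3, a nonclassical class I gene of the intestinal epithelium that binds the CD8αα of intraepithelial lymphocytes, fell from 302 to 512 CPM to 90.9 to 132 CPM (log2 -1.97 ± 0.30). The immunoproteasome subunits Psmb9 (log2 -1.61 ± 0.30) and Psmb10 (log2 -1.27 ± 0.25) fell, and so did Cd74, the invariant chain of class II (932 to 1726 CPM against 423 to 562 CPM, log2 -1.33 ± 0.39, adjusted p = 0.0112), although another probe of Cd74 did not pass (log2 -0.71, adjusted p = 0.272). Class I genes are a family of close copies, so reads may be shared among them.

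Interferon-responsive genes were divided, with 14 of 56 lower and 6 higher (median -0.19), and with 8 lower and 2 higher when detected probes were a covariate. Irf1, the transcription factor that drives class I and immunoproteasome genes, had 767, 720, 858, and 716 CPM in untreated and 275, 293, 198, 283, and 193 CPM in exposed villi (log2 -1.62 ± 0.24, adjusted p = 1.61e-07). Parp14, a mono-ADP-ribosyltransferase, fell by 1.52 ± 0.28 on the log2 scale. Mx1, an antiviral GTPase, had 0, 0, 14.6, and 0 CPM in untreated and 28.2 to 52.9 CPM in exposed villi (log2 3.15 ± 0.69, adjusted p = 0.000312), and of its other probes, both under 19 CPM, 1 rose and 1 did not pass. The list thus held members that moved in opposite directions, and under other scalings 1 to 6 members were higher and 14 to 17 lower.

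Markers of T cells and intraepithelial lymphocytes fell beside the genes of antigen presentation. Of 15 markers, 8 fell and 0 rose in each of the 4 scalings, the libraries did not overlap for 8, and the summed level of the 15 was 576 to 873 CPM in untreated and 122 to 185 CPM in exposed villi. Gzma, a granule protease of cytotoxic lymphocytes, had 312, 312, 385, and 296 CPM in untreated and 43.5, 54.8, 49.7, 48.1, and 64.6 CPM in exposed villi (log2 -2.65 ± 0.40, adjusted p = 1.63e-07). Ccl5, a chemokine that these cells store, fell from 62.3 to 132 CPM to 3.44 to 9.73 CPM (log2 -3.95 ± 0.53, adjusted p = 5.46e-09). Btnl6, a butyrophilin-like gene of the villus epithelium whose family maintains intraepithelial γδ T cells, fell from 552 to 838 CPM to 109 to 138 CPM (log2 -2.55 ± 0.29, adjusted p = 4.16e-11). Smooth muscle markers also fell in 5 of 9, with Cnn1, calponin of contractile cells, at 34.9 to 133 CPM in untreated and 1.42 to 22.6 CPM in exposed villi. Summed smooth muscle markers overlapped, at 278 to 1169 CPM in untreated and 306 to 525 CPM in exposed villi, and their part in the other results was not tested.

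**Figure D4:**
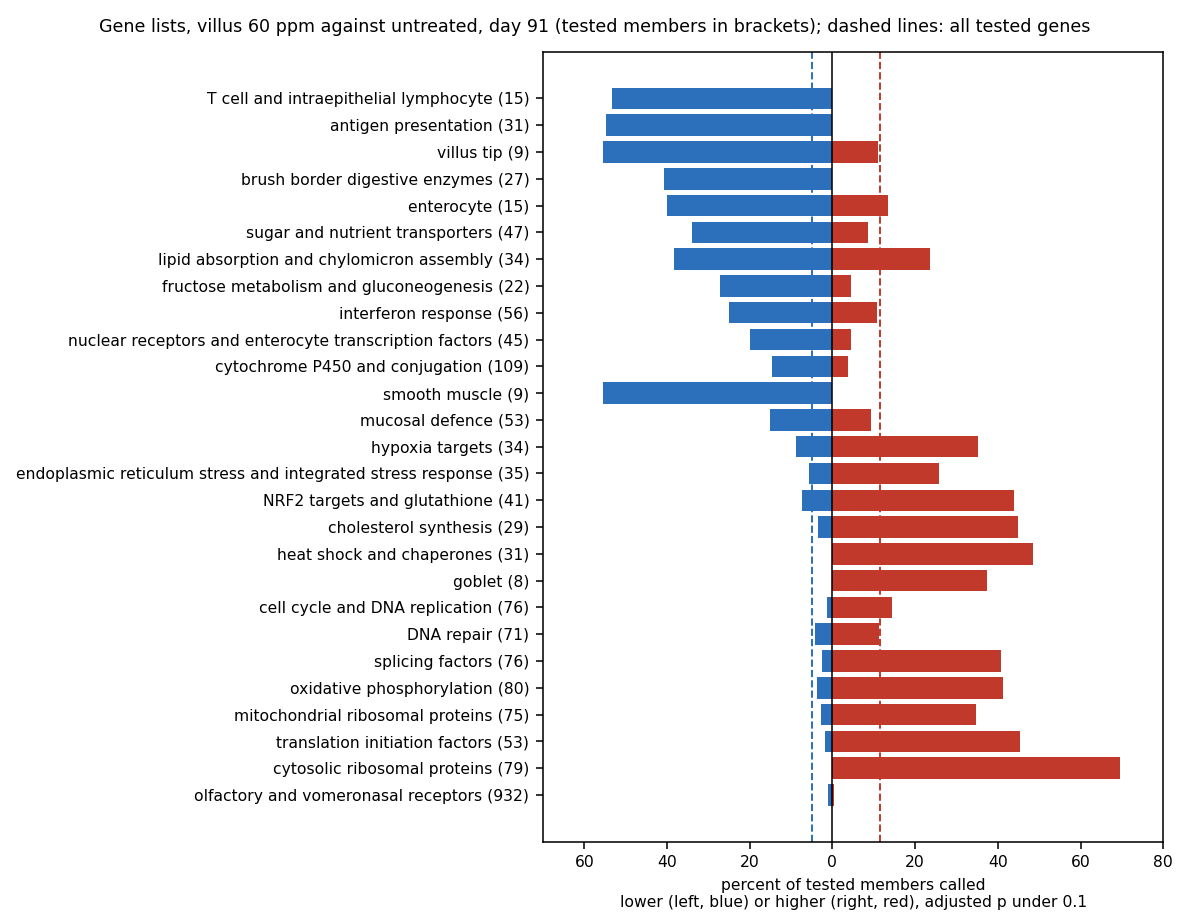
Share of the tested members of selected gene lists, out of 53, that was lower (blue, left) or higher (red, right) in the exposed villi at an adjusted p under 0.1, with dashed lines at the shares over all tested genes of every level (4.94% lower and 11.6% higher) and the number of tested members in brackets. Lists not drawn include p53 targets, iron, apoptosis, proteasome, fatty acid oxidation, and immediate early and AP-1 genes. Lists of the mature villus, antigen presentation, and T cells extend to the left and those of translation, respiration, and chaperones to the right. Olfactory and vomeronasal receptors, which the villus should not express, stayed below both lines. Only 1 of them had a mean of at least 10 CPM. Of all 5870 genes under 1 CPM, 0 were called higher and 1 lower, so these receptors are no measure of false calls.

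The machinery of protein synthesis was higher. Of 79 cytosolic ribosomal protein genes, 55 rose and 0 fell, the libraries did not overlap for 44, and the list median was 1.43 against 0.31 over all genes. The number of higher members was 47 to 55 across the 4 scalings and 43 with the number of detected probes as a covariate. Rpl18 (chr7:45715457-45720836), a protein of the large ribosomal subunit, had 361, 359, 265, and 751 CPM in untreated and 1926, 1761, 1858, 1819, and 1674 CPM in exposed villi (log2 2.06 ± 0.25, adjusted p = 2.19e-10). Rpl4, another protein of the large subunit, rose from 464 to 1205 CPM to 2487 to 3157 CPM (log2 1.97 ± 0.26). In both genes mouse 7 was the highest of the untreated. Ribosomal protein genes have many processed pseudogenes, whose reads the probes may share.

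Of translation initiation factors, 24 of 53 were higher and 1 lower (median 0.79). They were not set against genes of like level, and 602 of all 1289 genes at 100 to 300 CPM were higher (median 0.58). Eif3d, a subunit of the complex that brings messenger RNA to the small ribosomal subunit, had 64.8 to 80.3 CPM in untreated and 211 to 254 CPM in exposed villi (log2 1.70 ± 0.25, adjusted p = 6.03e-08), and Eif4a1, the helicase that unwinds leader sequences, rose by 1.59 ± 0.23 on the log2 scale. Of 76 splicing factors 31 rose and 2 fell (median 0.71), which was not set against genes of like level. Srsf3, a serine-rich and arginine-rich splicing regulator, went from 61.7 to 143 CPM to 271 to 317 CPM (log2 1.49 ± 0.25). The number of higher splicing factors was 17 to 31 across the 4 scalings and 14 with detected probes as a covariate, so its size depended on the setting.

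Genes of the mitochondrion were more often higher than lower. Of 75 mitochondrial ribosomal proteins 26 rose and 2 fell (median 0.82), and of 80 subunits of oxidative phosphorylation 33 rose and 3 fell (median 0.58). Neither list was set against genes of like level. Across the 4 scalings these counts of higher members ran from 12 to 26 and from 17 to 33, and with detected probes as a covariate they were 14 and 24. Mrps6, of the small mitochondrial ribosomal subunit, had 7.98, 15.8, 9.20, and 40.5 CPM in untreated and 96.8 to 141 CPM in exposed villi (log2 2.66 ± 0.36, adjusted p = 1.17e-08). Ndufb5, of respiratory complex I, rose from 80.8 to 120 CPM to 283 to 331 CPM (log2 1.51 ± 0.25), while its other probe did not pass (means of 36.8 and 41.1 CPM, log2 0.17, adjusted p = 0.85). Proteasome subunits were higher in 16 of 49 and lower in 4, of which Psmb9, Psmb10, and Psme2 are the interferon-inducible forms. Their list median, 0.31 with TMM, was below 0 in the other 3 scalings, while Psmc1, an ATPase of the regulatory particle, rose by 1.5 ± 0.22 on the log2 scale at its main probe and did not pass at the other (means of 13.9 and 18.8 CPM, adjusted p = 0.714).

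Cytosolic chaperones and heat shock proteins were higher in 15 of 31, with 0 lower (median 0.67), and were not set against genes of like level. Hspa8, the constitutive cytosolic chaperone of the 70 kDa family, had 128, 167, 175, and 391 CPM in untreated and 874, 667, 683, 715, and 498 CPM in exposed villi (log2 1.67 ± 0.26, adjusted p = 4.22e-07). Hspa4, a nucleotide exchange factor of that family, rose from 296 to 417 CPM to 916 to 1133 CPM (log2 1.54 ± 0.20, adjusted p = 9.39e-10). The untreated and exposed libraries did not overlap for either gene.

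Some genes of endoplasmic reticulum folding were higher too. Of 35 genes of endoplasmic reticulum stress and the integrated stress response, 9 rose and 2 fell (median 0.49). Hspa5 (chr2:34771970-34777547), the lumenal chaperone BiP, had 1272, 1147, 1280, and 1665 CPM in untreated and 3467, 3416, 3445, 2966, and 2390 CPM in exposed villi (log2 1.23 ± 0.20, adjusted p = 7.12e-07). Pdia3, a disulfide isomerase of newly made glycoproteins, rose from 354 to 589 CPM to 893 to 1254 CPM (log2 1.09 ± 0.20), and Ero1l, the oxidase that recharges such isomerases, rose from 152, 166, 239, and 264 CPM to 736 to 1078 CPM (log2 2.20 ± 0.25, adjusted p = 4.16e-11). The 2 that fell, Trib3 (log2 -1.33) and Sesn2 (log2 -3.29), are targets of ATF4, a factor of the integrated stress response, and their calls were lost in 8 of 24 alternatives for Trib3 and in 15 of 22 for Sesn2, including DESeq2, thinning, and leaving out 7 of the single libraries for Sesn2.

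The promoters of this group were searched because a sequence element is known for it. The endoplasmic reticulum stress element was sought as CCAAT and CCACG with any 9 bases between, on both strands in the 250 bases before each gene's RefSeq start ( GRCm38.p6, with 14182 of the 18998 tested genes matched). It was found in 8 of 31 promoters of the list (25.8%) and in 25 of all 14182 (0.176%). Of the 8 higher members with a promoter, 5 held it, and so did 0 of the 2 lower members. The heat shock element, sought as GAA, TTC, and GAA with any 2 bases between each, was found in 2 of 25 promoters of the chaperone list (8%) and in 64 of all (0.451%), and these were Hspd1 and Hspe1, a pair of higher genes that share a promoter between them. Of these matches 4 follow, read 5′ to 3′ on the strand of the gene, with the matched element in capitals. The match of Hspa5 ends 46 bases before the RefSeq start and lies inside the gene as GENCODE places it, since the GENCODE start is further upstream. A match is a description of the letters and no evidence that a factor was bound.
Hspa5, chr2:34772020-34772048, plus strand: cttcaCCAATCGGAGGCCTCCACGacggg
Canx, chr11:50325795-50325823, minus strand: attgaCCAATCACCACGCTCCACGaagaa
Pdia6, chr12:17266486-17266514, plus strand: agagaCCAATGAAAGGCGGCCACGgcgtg
Hspe1, chr1:55088059-55088081, plus strand: ttctaGAACCTTCCGGAAggccc

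The genes beside these elements were measured as follows. Canx, the lectin chaperone calnexin, rose by 1.05 on the log2 scale, Pdia6, a disulfide isomerase, by 2.05, and Hspe1, the mitochondrial co-chaperonin, by 1.86, which did not pass with detected probes as a covariate (log2 0.88). Elements of other lists were searched in the same way. The antioxidant response element core TGANNNNGC was in 20 of 36 promoters of the NRF2 list (55.6%) and in 39.7% of all promoters, and was found in 9 of 15 higher and 0 of 3 lower members. The hypoxia response core ACGTG was in 19 of 30 promoters of its list (63.3%) and in 21.5% of all, with 6 of 11 higher and 2 of 3 lower members. The interferon-stimulated element core, GAAA and GAAA with any 2 bases between, was in 20 of 41 interferon-responsive promoters (48.8%) and in 3.5% of all, among them 2 of 5 higher and 2 of 10 lower members. The same element was in 3 of 23 antigen presentation promoters (13%), all 3 of lower genes. The AP-1 site TGANTCA was in 0 of 24 promoters of immediate early and AP-1 genes against 6.92% of all, and the sterol regulatory element TCACNCCAC in 1 of 21 cholesterol promoters against 1.26% of all.

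Genes of cholesterol synthesis and uptake were mostly higher where they changed. Of 29, 13 rose and 1 fell (median 0.98, with 11 to 13 higher across the 4 scalings). Srebf2, the transcription factor that switches these genes on, rose from 38.5 to 106 CPM to 190 to 262 CPM (log2 1.85 ± 0.27, adjusted p = 7.06e-08). The exception was Insig2, which holds that factor's escort in the endoplasmic reticulum, at 20.3 to 68.0 CPM in untreated and 0.891 to 24.2 CPM in exposed villi (log2 -2.02 ± 0.45).

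Targets of NRF2, the factor that answers electrophiles and oxidants, were higher in 18 of 41 and lower in 3 (median 0.76, with 12 to 18 higher across the 4 scalings). Akr1b8 (chr6:34354119-34368463), an aldo-keto reductase that detoxifies lipid aldehydes, had 0, 0, 11.5, and 27.5 CPM in untreated and 311, 217, 276, 250, and 246 CPM in exposed villi (log2 4.6 ± 0.65, adjusted p = 3.07e-08). Gsta2, an alpha-class glutathione transferase with close family copies, rose from 81.8 to 526 CPM to 1956 to 2845 CPM (log2 3.13 ± 0.46, adjusted p = 9.10e-08). The 3 that fell included Ephx1, the microsomal epoxide hydrolase (66.5 to 182 CPM against 15.0 to 29.9 CPM, log2 -2.36 ± 0.40), and Txn1, the cytosolic thioredoxin (707 to 1069 CPM against 344 to 438 CPM, log2 -1.22 ± 0.29, not passed with detected probes as a covariate). The list thus did not move as a block.

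Genes of the hypoxia response were higher in 12 of 34 and lower in 3 (median 0.61), with no comparison to genes of like level. Hif1a, the oxygen-regulated subunit of the factor itself, had 134, 111, 108, and 94.9 CPM in untreated and 229, 293, 233, 226, and 288 CPM in exposed villi (log2 1.18 ± 0.30, adjusted p = 0.00219). Slc2a1, the basal glucose transporter GLUT1, had 0, 0, 4.21, and 6.12 CPM in untreated and 30.2 to 50.1 CPM in exposed villi (log2 3.71 ± 0.71), and Ldha, lactate dehydrogenase A, rose from 543 to 798 CPM to 1332 to 2129 CPM (log2 1.17 ± 0.28). The call for Ldha was lost with the log10 total count as a covariate (log2 0.63), and its other probe did not pass (means of 96.4 and 104.5 CPM, log2 0.11, adjusted p = 0.915). Mxi1, a repressor that opposes MYC, fell from 434 to 524 CPM to 130 to 190 CPM (log2 -1.51 ± 0.28). The groups did not overlap for the named probes of these 4 genes.

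Several genes that were near or at 0 in untreated villi were measured in every exposed villus. Fosl1 (chr19:5447547-5455946), a FOS-family partner in the AP-1 transcription factor, had 0 counts in all 4 untreated libraries and 81.4, 211, 98.6, 70.6, and 131 CPM in the exposed libraries, which is 362-fold higher when the untreated group is set at 3 counts in all (adjusted p = 6.24e-10). That floor covers counting error only and is no lower bound if low counts were lost in the untreated libraries, which was not tested. S100a14, another S100 protein of epithelia, had 0, 0, 4.98, and 11.9 CPM in untreated and 105 to 149 CPM in exposed villi (log2 4.69 ± 0.62, adjusted p = 2.79e-09), and 6 of the 14 S100 genes tested rose, with 0 lower. The list of immediate early and AP-1 genes had 8 of 35 higher and 3 lower with TMM, but its count of higher members fell to 3 and its count of lower members rose to 9 under another scaling. No direction is therefore given for that list as a whole.

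Markers of secretory and immune cells other than T cells were higher in part. Of 8 goblet cell markers 3 rose and 0 fell, and their sum was 4459 to 5048 CPM in untreated and 8177 to 9982 CPM in exposed villi. Fcgbp, a protein bound to mucus, rose from 584 to 1394 CPM to 3192 to 3791 CPM (log2 1.64 ± 0.30), and Spink4, a peptide of goblet cells, from 56.3 to 139 CPM to 207 to 347 CPM (log2 1.62 ± 0.32). Of 7 mast cell markers 2 rose, Mcpt1 and Mcpt2, proteases of mucosal mast cells that are close copies of each other. Mcpt1 (chr14:56017971-56020384) had 0, 0, 0, and 17.2 CPM in untreated and 95.5, 112, 466, 226, and 161 CPM in exposed villi (log2 5.44 ± 0.84, adjusted p = 3.02e-07), and Mcpt2 had 0, 0, 0, and 5.36 CPM and 16.1 to 93.3 CPM (log2 4.64 ± 1.02, adjusted p = 0.000312). Jchain, which joins secreted immunoglobulin A and marks plasma cells, rose from 370 to 970 CPM to 1468 to 2183 CPM (log2 1.58 ± 0.38, adjusted p = 0.00116), the only 1 of 10 markers of B and plasma cells that passed the test, and did not pass with detected probes as a covariate (log2 0.93). Of 13 macrophage and dendritic cell markers 3 rose and 1 fell, and 0 of 7 neutrophil markers passed.

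The genes of connective tissue were less uniform. Pdgfra, the receptor of platelet-derived growth factor on the fibroblasts under the epithelium, had 39.4, 21.1, 29.9, and 11.5 CPM in untreated and 148, 216, 236, 253, and 159 CPM in exposed villi (log2 3.00 ± 0.35, adjusted p = 5.55e-11). Of 10 fibroblast markers 3 rose and 1 fell, and their sum overlapped, with 551 to 1002 CPM in untreated and 866 to 974 CPM in exposed villi.

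Metal handling changed in a few genes. Mt2, a metallothionein that binds zinc and copper, had 0, 0, 21.8, and 37.9 CPM in untreated and 98.3 to 342 CPM in exposed villi (log2 3.47 ± 0.75, adjusted p = 0.000273). Of 13 genes of metallothionein and zinc handling 2 rose and 1 fell, and of 22 iron genes 2 rose and 4 fell, with 7 or 8 lower under the other 3 scalings and 1 with detected probes as a covariate. Tfrc, the transferrin receptor, had 72.8, 4.75, 6.51, and 88.4 CPM in untreated and 121 to 241 CPM in exposed villi (log2 1.97 ± 0.52, adjusted p = 0.00393). The untreated values of Tfrc were far apart, all lay below the exposed ones, and the increase did not pass with detected probes as a covariate (log2 0.96).

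Markers of the crypt and of cell division were low in villi and higher in a minority. Of 14 crypt stem and transit amplifying markers 3 rose, among them Lgr5, the receptor that marks intestinal stem cells, at 4.98, 1.58, 0, and 0 CPM in untreated and 9.55 to 27.3 CPM in exposed villi (log2 3.50 ± 0.95, adjusted p = 0.0053), which did not pass with detected probes as a covariate (log2 2.72). Under another scaling 2 of them were higher and 2 lower, and the list median turned below 0. Of 76 genes of the cell cycle and DNA replication 11 rose and 1 fell (against 11.6% of all genes higher), and across the 4 scalings 2 to 11 rose. With detected probes as a covariate 3 rose and the list median turned from 0.58 to -0.08. Pcna, the sliding clamp of DNA replication, went from 48.8 to 91.3 CPM to 108 to 152 CPM (log2 1.06 ± 0.26, adjusted p = 0.00228, not passed with TMM over probes of at least 50 CPM, log2 0.59), and Mcm10, a replication initiator, from 0 to 13 CPM to 31.3 to 42.5 CPM (log2 2.45 ± 0.58, adjusted p = 0.00104). The summed level of the 76 genes overlapped between the groups, at 520 to 1639 CPM and 911 to 2097 CPM.

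DNA repair genes were near the background, with 8 of 71 higher and 3 lower, and their list median lay above 0 in 1 scaling and below 0 in 2. Chek1, a kinase that halts the cycle at damaged replication forks, had 0, 0, 0, and 5.36 CPM in untreated and 13.5 to 31.5 CPM in exposed villi (log2 4.05 ± 0.93, adjusted p = 0.000678). Fanci, of the complex that repairs DNA crosslinks, had 0, 0, 7.28, and 0 CPM in untreated and 8.16 to 35.4 CPM in exposed villi (log2 3.13 ± 0.73, adjusted p = 0.000778). Both lay at levels where detection differed between the groups, and neither of the other 2 probes of each gene passed. Targets of p53 were split with TMM, 9 of 30 higher and 4 lower, and the split turned to 4 higher and 9 lower at the other extreme of the 4 scalings, so the list has no direction in these data. Apoptosis genes, with 7 of 38 higher and 5 lower, turned in the same way.

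Some histone demethylases were higher. Of 19, 7 rose and 0 fell (4 to 7 higher across the 4 scalings, where up to 2 were lower). Jmjd6, a dioxygenase of arginine and lysine side chains, had 14.5, 22.7, 42.9, and 50.5 CPM in untreated and 129 to 188 CPM in exposed villi (log2 2.26 ± 0.33, adjusted p = 1.03e-07), and of its other probes 1 rose (log2 1.54) and 1 did not pass (log2 0.75, adjusted p = 0.195). Outside that list, Mat2a, which makes S-adenosylmethionine, rose from 142 to 224 CPM to 387 to 633 CPM (log2 1.47 ± 0.23), and Kmt2d, a methyltransferase of histone H3, from 60.7 to 97.9 CPM to 205 to 252 CPM (log2 1.42 ± 0.21). The libraries of the groups did not overlap for these 3 genes.

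Against the villi at 0.1 and 1.4 ppm on day 91, which were sequenced more deeply than the untreated villi, 60 ppm gave 2623 higher (13.8%) and 1050 lower genes (5.53%). This comparison uses the same exposed libraries and is not independent of the first. Some lists had counts near those above or larger, with 71 of 79 ribosomal proteins higher, 22 of 31 antigen presentation genes lower, 10 of 15 T cell markers lower, 14 of 27 brush border enzymes lower, and 14 of 29 cholesterol genes higher. The fall of Pck1 had a log2 value of -4.36 here, and its level was 353 ± 69.1 CPM at 0.1 ppm and 218 ± 145 CPM at 1.4 ppm (SD, n = 5 each). The cell cycle list had 31 of 76 higher here, against 11 beside the untreated villi, where the count was 15 (median 1.71) without the 3 libraries with the most acinar RNA and 11 (median 0.60) with acinar RNA as a covariate. Other lists differed from the first comparison, with 10 of 53 mucosal defence genes higher and 4 lower, 2 of 12 Paneth markers higher and 0 lower, 7 of 14 crypt markers higher, and 10 of 47 genes of fatty acid oxidation higher and 8 lower.

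Few genes were called between villi at 60 ppm and those at 20 or 180 ppm, which does not show that the groups were alike. Villi at 20 and 180 ppm were not compared with each other. Only 14 genes (0.0737%) differed between 60 and 20 ppm, 9 higher (0.0474%) and 5 lower (0.0263%), with 1057 at an unadjusted p under 0.05 and 178 called by DESeq2. Between 60 and 180 ppm edgeR called 0 genes, with 820 at an unadjusted p under 0.05 and 18 called by DESeq2. Leaving out 1 library at a time moved the count of 14 to between 1 (without mouse 321 at 20 ppm, or without mouse 404) and 70 (without mouse 328 at 20 ppm), with 34 without mouse 403 and 2 to 6 without mice 402, 405, 406, 323, or 327. The genes that separated 60 from 20 ppm included the mast cell proteases and genes of lymphocytes and antigen presentation. Mcpt1 was at 7.78 ± 3.97 CPM at 20 ppm, 212 ± 151 CPM at 60 ppm, and 225 ± 126 CPM at 180 ppm (SD, n = 5 each), and its level at 0, 0.1, 1.4, and 5 ppm was at most 11.1 CPM on average. Gzma fell between 20 and 60 ppm, from 202 ± 118 to 52.2 ± 8.07 CPM (log2 -1.96 for 60 against 20 ppm), with 571 ± 223 CPM at 5 ppm, and S100a6 rose from 201 ± 66.6 to 506 ± 110 CPM (log2 1.34).

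Other genes had moved at lower concentrations. Mme was at 1933 ± 476 CPM at 1.4 ppm, 650 ± 388 CPM at 5 ppm, and 283 ± 85.3 CPM at 60 ppm, and Ada at 347 ± 246, 49.2 ± 35.7, and 3.85 ± 3.20 CPM. Rpl18 rose from 419 ± 72.7 CPM at 1.4 ppm to 987 ± 166 CPM at 5 ppm and 1808 ± 95.8 CPM at 60 ppm, and was 1253 ± 377 CPM at 180 ppm. Akr1b8 rose from 25.5 ± 15.5 CPM at 1.4 ppm to 198 ± 29.1 CPM at 20 ppm and 260 ± 35.1 CPM at 60 ppm. These steps between neighbouring concentrations are given as levels without a test.

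**Figure D5:**
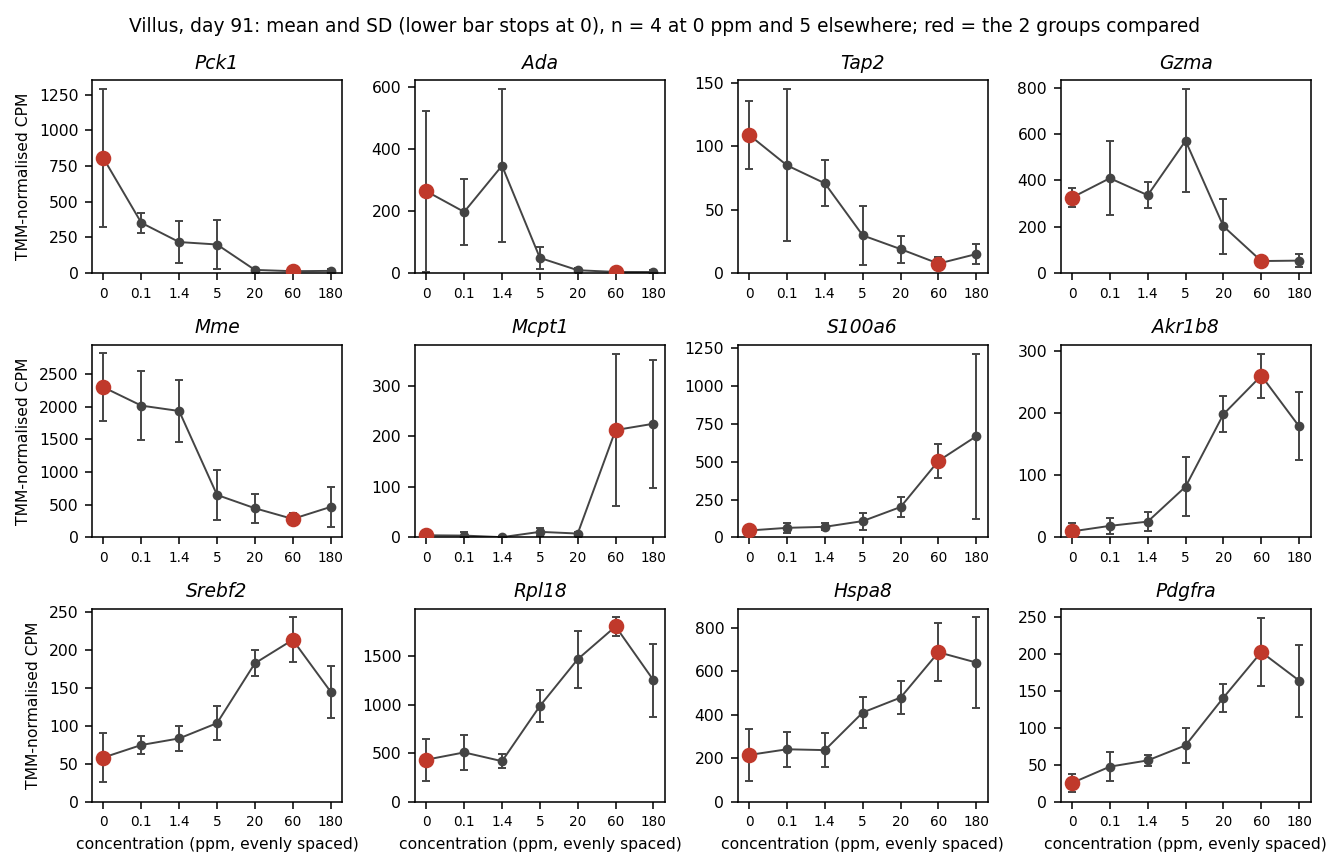
Mean and SD of 12 genes in day 91 villi at each concentration (4 mice at 0 ppm, 5 elsewhere; evenly spaced axis), with red points at the 2 groups compared. Mcpt1 stays at or below 11.1 CPM on average up to 20 ppm and reaches 212 CPM at 60 ppm, while Mme, Ada, and Rpl18 have changed by 5 ppm.

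The effect of 60 ppm differed between day 8 and day 91 for 1936 genes (10.2%), more positive at day 91 for 1553 (8.17%) and more negative for 383 (2.02%), and the median of all genes was 0.69, so values are read against that shift. Chaperones and translation genes were among those more positive at day 91. Hspa8 was 415 ± 125 CPM in untreated and 263 ± 55.2 CPM in exposed villi at day 8 (SD, n = 5 each), against means of 215 and 687 CPM at day 91 (difference of effects 2.32 ± 0.35 on the log2 scale, adjusted p = 1.56e-05). Jmjd6 and Mat2a differed in the same way (2.90 and 1.91), and 11 of 31 chaperones and 32 of 79 ribosomal proteins had a more positive effect at day 91, with 0 more negative. Tap2 was 40.8 ± 19.0 and 31.1 ± 18.3 CPM at day 8, and its decrease was larger at day 91 by 3.36 on the log2 scale (adjusted p = 0.000152). Btnl6, Mme, Dpp4, and Apob also fell further at day 91. Pck1 was already at 15.5 ± 13.7 CPM in exposed villi at day 8 against 745 ± 337 CPM in untreated villi, and a difference between its effects was not detected (adjusted p = 0.909). Gzma was likewise at 457 ± 215 and 82.4 ± 66.5 CPM at day 8. With detected probes, counted after thinning, as a covariate, 147 genes differed in place of 1936, and the count was 1181 without mouse 48 and 1273 without mouse 5, both untreated.

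The villus effect differed from that in the crypts of the same concentration and day for 17 genes (0.0895%), 16 more positive in the villus (0.0842%) and 1 more negative (0.00526%), with 1292 at an unadjusted p under 0.05. Without the untreated villus of mouse 7, 135 genes differed, and leaving out any other 1 of these crypt and villus libraries gave 5 to 22. With the mouse as a block, which pairs the crypt and villus of each mouse, 272 genes passed (1.43%), 208 more positive (1.09%) and 64 more negative (0.337%). Pdgfra was 68.2 ± 25.7 CPM in untreated and 89.6 ± 16.5 CPM in exposed crypts (SD, n = 5 each), against means of 25.5 and 202 CPM in villi (difference of effects 2.60 on the log2 scale, adjusted p = 0.000913). Osbpl1a, an oxysterol-binding protein of late endosomes, was 14.7 ± 5.04 and 10.6 ± 2.82 CPM in crypts and fell in villi from 83.9 ± 34.8 to 8.34 ± 3.10 CPM (difference -2.76, adjusted p = 0.0192). Igfbp3, which binds insulin-like growth factors, was 187 ± 59.5 CPM in untreated and 66.5 ± 13.9 CPM in exposed crypts and showed no difference past the threshold in villi (log2 0.61, adjusted p = 0.215; difference of effects 2.10, adjusted p = 0.0111). Adora2a, an adenosine receptor, was at 0 counts in all 4 untreated villi and at 22.6 to 57.9 CPM in exposed villi, 107-fold higher with 3 counts as the floor of the group for counting error only, and at 11.1 ± 4.84 and 13.4 ± 4.95 CPM in crypts. Tap2, Hspa8, Rpl18, and Akr1b8 moved in crypts in the direction they did in villi, and a difference between the compartments was not detected for them.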

How the data were processed

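Read counts per probe, as deposited by the authors without normalization, were used for 137 libraries from 71 mice. The submitters' processing notes name bcl2fastq 2.17.1.14 and Bowtie, and the version of Bowtie and the genome build of the probes are not given in the sources used here. Gene positions are from GENCODE M21 on GRCm38. Groups came from the sample labels.

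Counts were fitted in R 4.3.3 with edgeR 4.0.16 (quasi-likelihood, TMM, filterByExpr, 28 groups, all libraries), and p-values were adjusted over 26365 probes by Benjamini-Hochberg with a threshold of 0.1. Each of 18998 genes stood for its probe of highest total count. Levels are TMM-normalised CPM with SD over mice, and floors of 3 counts and thinning cover counting error only. Replicates correlated at 0.812 to 0.853 (untreated) and 0.914 to 0.958 (exposed), and no pair agreed within sampling noise. The members and the 53 gene lists were chosen with earlier results of these data known.

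Named genes are the 12 of smallest p in each direction among non-overlapping genes of at least 10 CPM, the leading called and the most abundant members of each list, genes the paper names, and the leading genes of the other contrasts. Canx, Pdia6, Hspd1, Hspe1, and Psme2 were added after their values were seen, and 1 gene is not reported here. The code was tested on simulated data.

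Exposed and untreated mice differ, so a mouse block applies only to crypts against villi. Deviations of crypt and villus from the same mouse had a median correlation of 0.238 in 9 pairs (8 over 0.1), against -0.03 in 36 pairs of different mice. Alternatives were DESeq2 1.42.0, its size factors in edgeR, TMM over probes of at least 50 CPM, other filters, other sets of libraries, summed probes, depth, detection, and acinar covariates, thinning, and leaving out each library.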

Additional observations from a re-analysis of the deposited data

Results flagged for a closer look

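Single libraries stood apart in 22 of 250 groups of values, by the gap to the next value as a share of the range. The limits used give about 1 in 20 by chance for independent normal values. These values were unlogged and related to each other, and some groups had a single library above 0, so that rate does not apply. Among sums of marker levels in CPM before TMM scaling, mouse 7 stood high in acinar (88310) and erythrocyte RNA (8.21), mouse 402 in Paneth (3404) and crypt markers (761), mouse 5 in Brunner gland markers (78.6), and mouse 404 in mast cell markers (534), and mouse 405 was low in plasma cell markers (1347). Among untreated villi, mouse 7 was high in Srebf2 (106 CPM), Krt19 (371 CPM), Mcpt1 (17.2 CPM), Mcpt2 (5.36 CPM), and Chek1 (5.36 CPM), and mouse 6 in Fanci (7.28 CPM) and Mx1 (14.6 CPM). Among exposed villi, mouse 402 stood apart in Slc16a1 (365 CPM), Hspe1 (98.9 CPM), and Hspd1 (150.3 CPM), mouse 403 in Guca2b (181 CPM), mouse 404 in Mxi1 (130 CPM) and Mcpt2 (93.3 CPM), mouse 405 in Ada (9.5 CPM), and mouse 406 in Ldha (2129 CPM).

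The 60 ppm effect differed between day 8 and day 91 for 57 of the named genes in edgeR, and the values in brackets are the day 91 effect minus the day 8 effect on the log2 scale, where the median of all genes was 0.69. The most positive were Adora2a (9.23), Igkv15-103 (5.93), Fanci (3.96), Chek1 (3.29), Jmjd6 (2.90), Slc2a1 (2.78), S100a14 (2.53), Hspe1 (2.53), Hspd1 (2.37), Tfrc (2.37), Hspa8 (2.32), Jchain (2.11), and Egfr (2.08). Lower values were those of Pdia6 (2.05), Mat2a (1.91), Mrps6 (1.86), Pdgfra (1.86), Gmds (1.74), Kmt2d (1.70), Rpl18 (1.70), Srsf3 (1.66), S100a6 (1.65), Klf5 (1.60), Eif3d (1.51), Safb (1.47), and Srebf2 (1.43). Smaller ones were those of Taf1d (1.39), Rpl4 (1.36), Ero1l (1.31), Fabp2 (1.28), Hspa4 (1.26), Fcgbp (1.24), Igfbp3 (1.20), Slc16a1 (1.19), Psmc1 (1.1), Hspa5 (1.02), Ndufb5 (1.01), Pdia3 (1.0), and Eif4a1 (0.82). Negative differences were those of Sesn2 (-4.75), Tap2 (-3.36), Cnn1 (-3.21), St3gal4 (-3.01), Ugt2b38 (-2.94), Ghrl (-2.31), Btnl6 (-2.24), Dpp4 (-2.22), Insig2 (-2.12), Ccl5 (-2.02), Mme (-1.86), Apob (-1.80), Txn1 (-1.55), Parp14 (-1.51), H2-T3 (-1.50), Slc6a20a (-1.43), Irf1 (-1.10), and Psme2 (-1.0).

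The effect in villi minus the effect in crypts was past the threshold for Gmds (2.31), Pdgfra (2.60), Adora2a (9.75), Osbpl1a (-2.76), and Igfbp3 (2.10), as log2 differences. Adora2a had 0 counts in all 4 untreated villi, so its fitted values depend on the prior count and are no bound.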

How the results depend on the processing

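Of 2374 values of 99 named genes under the alternatives, 0 reversed, 55 no longer passed, and 4, all of Vil1, newly passed. The counts of the main comparison moved most with scaling and detection. With detected probes, counted after thinning, as a covariate, 1816 genes differed, 1167 of them higher. Higher genes numbered 1198 with the size factors of DESeq2 and 1077 with TMM over probes of at least 50 CPM, and lower genes 1723 and 1879, with 1587 in DESeq2 itself. Without the 3 libraries over 30000 acinar CPM (mice 7, 402, and 405, chosen after seeing the data), 570 genes were lower. Leaving out 1 library at a time gave 2384 to 3165 genes in all, 1650 to 2290 higher and 732 to 997 lower.

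Against 0.1 and 1.4 ppm the detection covariate gave 2257 genes, and leaving out 1 library gave 2793 to 3655. Against 20 ppm the count was 2 with a trended dispersion, 178 in DESeq2, 32 with its size factors, 72 with the detection covariate, and 1 to 70 without 1 library. Against 180 ppm it was 18 in DESeq2, 2 with the detection covariate, and 0 to 1 without 1 library. Between days it was 3328 with a trended dispersion, 147 with the detection covariate, and 1181 to 2104 without 1 library. Between compartments it was 136 in DESeq2, 8 with its size factors, 11 with the detection covariate, 62 in the crypts and villi of 0 and 60 ppm at day 91 alone, 5 to 135 without 1 library, and 272 with the mouse as a replicate block. The same set without the block was added after seeing the data. The difference in probes detected at equal depth, 4239 on average, was 3876 to 4762 without 1 library. The cause of these moves was not tested. No paired analysis was possible for the main comparison because exposed and untreated villi came from different mice. Precision is limited by 4 untreated libraries, by their totals of 1667014 to 2678299 counts, and by the many probes at 0 in them.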

Other observations

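Several groups of genes not described above changed in part. Of 14 enteroendocrine markers 3 rose and 3 fell. Ghrl, the precursor of ghrelin, had 74.3, 112, 45.2, and 181 CPM in untreated and 11.6 to 38 CPM in exposed villi (log2 -2.06 ± 0.46, adjusted p = 0.000449, edgeR, not passed without mice 7, 402, and 405), and Chga, chromogranin A of hormone granules, fell from 61.2 to 122 CPM to 30.8 to 54.3 CPM (log2 -1.02 ± 0.33, adjusted p = 0.0257, not passed without mouse 5). Of 25 genes of sialic acid metabolism 3 rose and 3 fell, and St3gal4, a sialyltransferase, went from 78.8 to 208 CPM to 8.41 to 24.2 CPM (log2 -2.96 ± 0.49, adjusted p = 1.86e-06).

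Of 53 genes of mucosal defence 5 rose and 8 fell, with a median of 0.47, and 4 fell without mice 7, 402, and 405. Over all genes tested 11.6% were higher and 4.94% lower. Guca2b, uroguanylin, which controls salt and water secretion, fell from 217 to 532 CPM to 33.6 to 181 CPM (log2 -2.31 ± 0.54, adjusted p = 0.000876), and Cxcl16, a chemokine held on the cell surface, rose from 99.5 to 221 CPM to 317 to 443 CPM (log2 1.31 ± 0.29, adjusted p = 0.000351). Of 166 immunoglobulin variable segments 16 rose and 1 fell (6 to 16 higher across the 4 scalings), both below the shares over all genes. The increases were led by Igkv15-103 at 0 to 10.3 CPM in untreated and 40.5, 115, 144, 196, and 282 CPM in exposed villi (log2 4.78 ± 0.99, adjusted p = 0.000142). Variable segments are close copies, and the repertoire differs between mice. Of the remaining marker lists, tuft cells had 2 of 9 higher and 1 lower, neurons and glia 0 of 10 higher and 1 lower, and 0 of 10 endothelial, 0 of 4 erythrocyte, and 0 of 3 Brunner gland markers passed. Of 47 genes of fatty acid oxidation 9 rose and 1 fell, but 7 rose and 9 fell with the size factors of DESeq2, so no direction is given. Olfactory and vomeronasal receptors had 4 of 932 higher and 11 lower.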
